A study of Drosophila melanogaster with 9 samples.

Results

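Heads of Drosophila melanogaster females homozygous for Ime4 were compared with heads of heterozygous females, by RNA-seq read counts per gene. The comparison takes 6 of the 9 libraries of the series, 3 homozygous and 3 heterozygous, chosen by the genotype in their labels. The other 3 libraries, from control heads, entered the count filter, the scaling and the estimate of the spread between libraries. Their values are shown beside the comparison for part of the genes, without a test. All flies were adult females, 1 to 2 days old, raised at 25 °C and 60% humidity, and poly(A) RNA was purified from whole heads. The labels give the genotypes as heterozygous for Ime4, homozygous for Ime4 and control, and no treatment, driver or further allele. The extent of the Ime4 lesion, the genetic background of the control flies, the number of heads per library and whether the libraries of a group were grown as separate cultures are not given. The p-values therefore measure the spread between these libraries.

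Ime4 (Mettl3) is the enzyme that places a methyl group on adenosines inside messenger RNA, a mark known as m6A. It works with a partner protein, Mettl14, and with a group of adaptor proteins, among them Fl(2)d, Virilizer, Nito, Flacc and Hakai. Proteins with a YTH domain then bind the mark: Ythdc1 (YT521-B) in the nucleus, where in flies it takes part in splicing of the sex determination gene Sxl, and Ythdf in the cytoplasm. Neurogenesis and sex determination are the processes named in the series title.

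Levels are in CPM, the reads of a gene relative to the TMM-scaled total of its library, and 3 values in a row are always replicates 1, 2 and 3. A log2 fold change is homozygous over heterozygous, with its standard error (SE). A gene is called when its edgeR adjusted p (quasi-likelihood test, Benjamini-Hochberg adjustment over all genes tested) is under 0.05. Of 17558 genes listed, 13153 had a read in the 6 libraries and 8972 had enough reads to be tested.

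Reads in genes numbered 3420013 to 3684110 in the heterozygous and 3607203 to 4272550 in the homozygous libraries. The homozygous libraries were not alike. Differences between replicates, as chi-square per degree of freedom over genes, were 5.0 to 7.64 among the heterozygous libraries and 6.71 between homozygous replicates 1 and 2, but 23.3 and 23.9 between these and homozygous replicate 3. Markers of the head were abundant in all 6 libraries: 12 photoreceptor markers summed to 26774 to 29869 CPM in heterozygous and 23228 to 24576 in homozygous heads, and 9 neuron markers to 6072 to 6517 and 4993 to 5918. Summed markers of midgut, fat body and flight muscle differed by library. Those of the Malpighian tubule were similar, at 496, 426 and 480 CPM in heterozygous and 453, 408 and 488 in homozygous libraries. Most of that sum came from ClC-c and Best2, at 169 and 139 CPM in heterozygous replicate 1. Other listed members were near the floor: Uro had 0 reads in every library, and CapaR and Oatp58Db had 0 to 3. The similar sums therefore do not measure these members. The 27 midgut markers summed to 63.7, 94.4 and 99.7 CPM in the heterozygous, 879, 1029 and 117 in the homozygous and 113, 122 and 51.6 in the control libraries. The 10 fat body markers summed to 7232, 7795 and 11328 CPM in the heterozygous libraries and to 9537, 9273 and 3688 in the homozygous ones, lowest in homozygous replicate 3. Most of each sum came from the yolk protein genes Yp1, Yp2 and Yp3 and from apolpp, each lowest in homozygous replicate 3. Members with lower levels were mixed. In the homozygous libraries bmm had 112, 103 and 125 CPM, Lsd-1 72.6, 62.3 and 65.7 and Fbp1 1.44, 2.24 and 7.54. Lsp2, Sodh1 and Tsf1 were lowest in replicate 3 within the homozygous group. The 10 flight muscle markers summed to 24357, 27318 and 26135 CPM in the heterozygous, 14895, 22112 and 16049 in the homozygous and 19714, 16207 and 16935 in the control libraries, with every homozygous library below every heterozygous one. Most of each sum came from up and Mhc, at 13093 and 7840 CPM in heterozygous replicate 1. Another member, fln, which encodes a protein of the thick filament, had 606, 846 and 878 reads in heterozygous and 135, 2175 and 1379 in homozygous libraries, low in replicate 1 and above the heterozygous range in the others. The 10 testis markers summed to at most 0.479 CPM in any of the 6 libraries. Eggshell and ovary markers summed to 147 to 209 CPM in these libraries and to 148, 134 and 506 in the control ones, highest in control replicate 3. Nearly all of the sum in the 6 libraries came from bru1, the 1 tested member of the 19 listed. It had 159, 148 and 166 CPM in heterozygous, 158, 144 and 207 in homozygous and 140, 123 and 139 in control libraries.

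**Figure D1:**
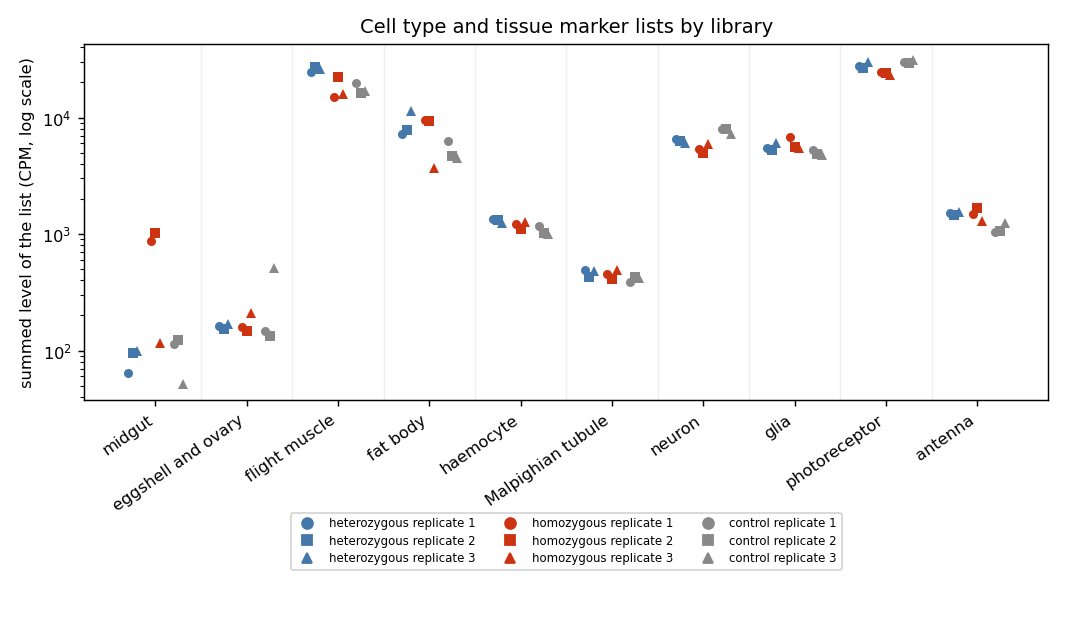
Summed level of each marker list (CPM, log scale) in each library, with colour for the group and symbol for the replicate. Midgut markers stand at 879 and 1029 CPM in homozygous replicates 1 and 2 and between 51.6 and 122 in the other 7 libraries, while the neuron and photoreceptor lists are high in every library.

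Ime4 itself had the fewest reads in homozygous heads. Mettl3, with the identifier FBgn0039139 and the position 3R 24032157 to 24034257, was covered by 8, 13 and 16 reads in heterozygous and 3, 3 and 2 in homozygous libraries, with 17, 19 and 18 in control. The groups did not overlap, and the level fell from 3.59 ± 1.32 to 0.681 ± 0.179 CPM (SD, n = 3). The log2 fold change was -2.34 ± 0.48 (SE; edgeR adjusted p = 0.0116), a call that was lost without heterozygous replicate 2 or 3, with edgeR adjusted p up to 0.065. Its nuclear reader Ythdc1 (FBgn0027616, 3L 3370451 to 3374170) had 104, 103 and 88.7 CPM in heterozygous and 64.2, 56.5 and 62.5 in homozygous heads. It fell by 0.69 ± 0.12 on the log2 scale (edgeR adjusted p = 0.00615) and stayed called without any one of the 6 libraries. These were 2 of the 9 tested m6A genes, beside 5.48% of all genes tested. The methyltransferase partner Mettl14, at 7.16 ± 1.48 CPM in heterozygous and 9.16 ± 2.06 in homozygous heads (SD, n = 3), had a log2 fold change of 0.36 ± 0.26 (edgeR adjusted p = 0.478). The adaptor genes fl(2)d, vir, nito, Flacc and Hakai had log2 fold changes of 0.19, 0.02, -0.04, -0.11 and -0.18, and the cytoplasmic reader Ythdf of 0.23, none of them called.

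Across all genes, 492 of 8972 were called, 303 higher and 189 lower in homozygous heads, which is 5.48%, 3.38% and 2.11% of genes tested. With each library corrected for exon length, a step chosen after seeing the data, 294 genes were higher and 297 lower, so that the higher share moved from 61.6% to 49.7%. In the other fits that share was between 53.1% and 67.3%. The median log2 fold change over all genes tested was 0.02. For 2331 genes, 26.0% of all tested, every homozygous library lay on one side of every heterozygous one, 1170 higher (13.0%) and 1161 lower (12.9%). Among the called genes, 293 lay higher (3.27%) and 188 lower (2.10%) in all 3 homozygous libraries than in any heterozygous one. A further 11 genes were called although the libraries overlapped. Separation was at least 2-fold between every homozygous and every heterozygous library for 47 higher genes (0.524%) and 17 lower genes (0.189%).

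A second class of genes had high reads only in homozygous replicates 1 and 2. Taking genes with both libraries at least 3 times above the highest of homozygous replicate 3 and the heterozygous libraries, with that highest set to at least 1 CPM, gave 71 genes, 0.540% of the 13153 with a read. Since these genes were chosen on their values, their levels are a description and carry no test. The count filter, which asks for enough reads in 3 libraries, was not passed by 44 of them. Of the 27 that passed, 20 were called, 11 of these also higher in all 3 homozygous libraries and 9 of them overlapping. Nothing is read from these counts, which follow from how the class was chosen and filtered. The 9 overlapping genes were Amy-d, betaTry, CG12374, CG44250, CG9757, Jon65Aiii, Jon65Aiv, LysD and yip7. The remaining 2 of the 11 called but overlapping genes, named because the count is small, were the immune peptide gene BomBc2 and lncRNA:roX1.

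Just inside the 3-fold limit were exex at 3.03, CG7294 at 3.07, CG17109 at 3.11 and CG6484 at 3.16, as the ratio of the lower of homozygous replicates 1 and 2 to the highest of the other 4 libraries. Just outside were CG9672, CG3868 and CG6901 at 2.87 and hoka at 2.81. A limit of 2-fold gave 115 genes and a limit of 5-fold 42.

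**Figure D2:**
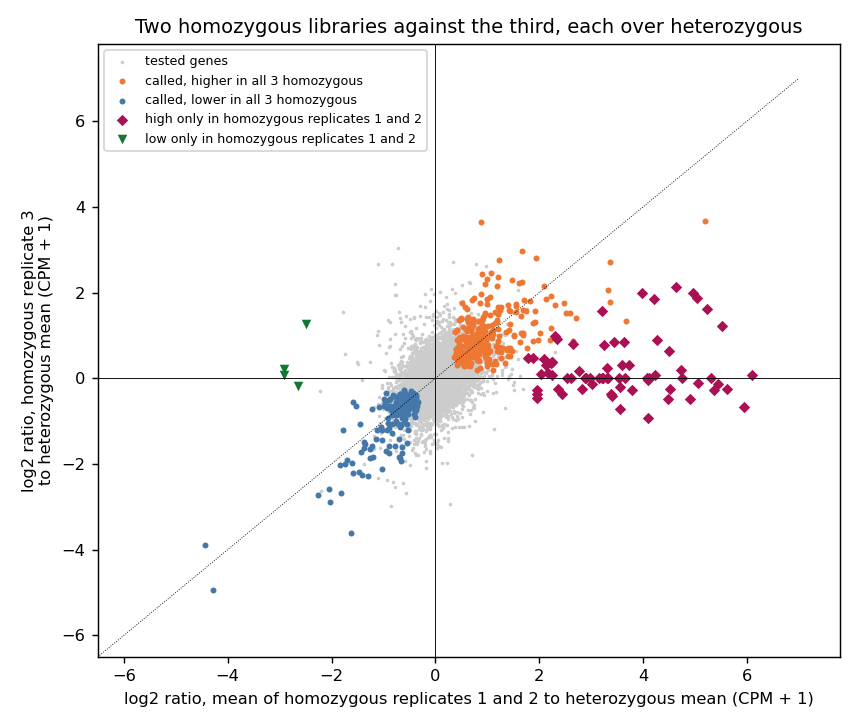
Each point is a gene; the horizontal axis gives the log2 ratio of the mean of homozygous replicates 1 and 2 to the heterozygous mean, and the vertical axis that of homozygous replicate 3, both of CPM + 1. Genes called and separated in all 3 libraries, without those high only in homozygous replicates 1 and 2 (282 higher, 188 lower), follow the dotted diagonal. The 71 genes high only in homozygous replicates 1 and 2 spread along the horizontal axis. Of these 71, 11 were also called higher in all 3 libraries.

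Digestive enzymes were among the most abundant genes of this second class. The trypsin gene betaTry (2R 11346325 to 11347395) had 4, 6 and 4 reads in heterozygous libraries and 577, 645 and 6 in homozygous ones, with 11, 4 and 5 in control. Its neighbour alphaTry had 0, 3 and 3 reads in heterozygous and 272, 280 and 11 in homozygous libraries. In both genes homozygous replicates 1 and 2 stood far above the rest, and only alphaTry was also a little higher in replicate 3. Of 31 listed trypsins and chymotrypsin-like proteases, 13 were in the class. The whole list summed to 14, 33.9 and 26.3 CPM in heterozygous and to 700, 770 and 26.5 in homozygous libraries. The Jonah proteases Jon65Aiv, Jon74E and Jon99Ci had 295, 236 and 181 reads in homozygous replicate 1 and 16, 14 and 2 in replicate 3. The protease gene yip7 had 18, 56 and 31 reads in heterozygous and 509, 393 and 30 in homozygous heads, so replicate 3 lay within the heterozygous range.

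Some enzymes of starch and sugar digestion were also in the class. The maltase gene Mal-A1 had 5, 4 and 10 reads in heterozygous and 293, 411 and 39 in homozygous libraries, and Mal-A6 had 0, 3 and 0 against 154, 203 and 12. Both were higher in all 3 homozygous libraries, although replicate 3 was far below the other 2 libraries. The amylase gene Amy-p, with 31, 93 and 87 reads in heterozygous and 393, 384 and 111 in homozygous heads, reached 27.0 CPM in homozygous replicate 3 and 26.6 in the highest heterozygous library. LysD, one of a cluster of digestive lysozyme genes, had 0, 3 and 2 reads in heterozygous libraries and 329, 233 and 1 in homozygous ones. Of 28 listed glycosidases, lipases and lysozymes, 9 were in the class. The whole list summed to 178, 183 and 218 CPM in heterozygous and to 537, 610 and 198 in homozygous libraries. Of its 11 tested members 4 had a log2 fold change below 0, and the maltase gene Mal-B2, named after its values were seen, was called lower in all 3 homozygous libraries, with 150, 153 and 172 against 120, 122 and 122 reads (log2 fold change -0.57 ± 0.15, edgeR adjusted p = 0.0415). Among members chosen after their values were seen, epsilonTry had 166 and 135 reads, thetaTry 68 and 58 and LysC 111 and 89 in homozygous replicates 1 and 2, and 0 in homozygous replicate 3 and every heterozygous library.

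**Figure D3:**
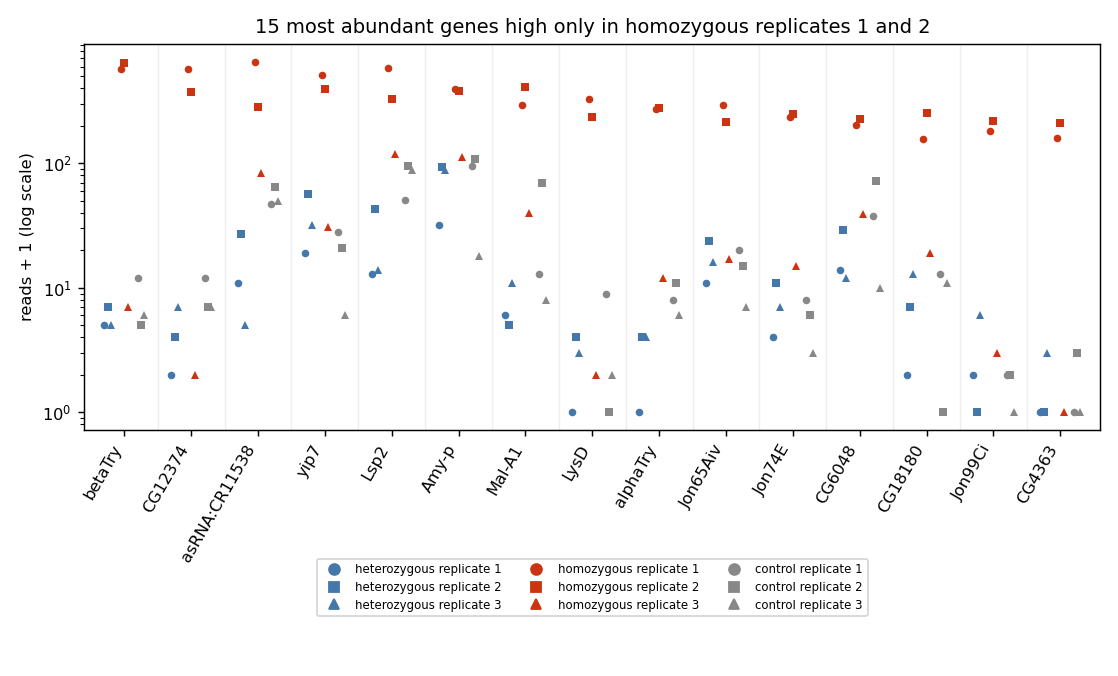
Reads + 1 (log scale) in each library for the 15 most abundant genes of the class, with colour for the group and symbol for the replicate. Homozygous replicates 1 and 2 (circles and squares) lie above all other libraries for each gene, while homozygous replicate 3 lies among or near the heterozygous and control libraries, as for betaTry with 577, 645 and 6 reads.

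The class as a whole summed to 2115 and 2354 CPM in homozygous replicates 1 and 2, 179 in homozygous replicate 3, 63.1 to 127 in the heterozygous and 86.3 to 218 in the control libraries. A total of 24 members were in a digestive or midgut list and 47 in neither. Members were in similar proportion in both libraries: the ratio of replicate 2 to replicate 1 had a median of 1.22 and ran from 0.276 for LysB to 2.51, and replicate 2 was the higher for 52 genes. Of the 71 genes, 69 were protein coding, 23 lay on 2R, 18 on 3R, 15 on 3L, 10 on 2L and 5 on the X. No read was found in any heterozygous library for 20 of them, nor in homozygous replicate 3 for 16 of these. The midgut marker sum moved with the class, to which 15 of the 27 markers belong, beside 0.540% of genes with a read. For these 15 that follows from how the class was chosen. Outside it, the tested members Myo31DF and lab had 41.7, 43.0 and 46.2 CPM and 3.83, 4.75 and 3.89 CPM in the homozygous libraries. Members with fewer reads were mixed, such as GATAe with 5, 4 and 6 reads there and LysE with 8, 5 and 0. With at least 1 read in 25, 23 and 14 of the 27 markers, the homozygous libraries differed in the number of midgut markers detected. Their part in the other differences was not tested. In whole heads, more cells of a type and more RNA per cell cannot be told apart. A fit without homozygous replicates 1 and 2 cannot test the class, since its members were chosen for being low in homozygous replicate 3.

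The ratio of the lower of homozygous replicates 1 and 2 to the highest of the other 4 libraries was 3.24 for Lsp2, a storage protein gene of the fat body. It had 12, 42 and 13 reads in heterozygous and 582, 330 and 117 in homozygous libraries, with 50, 95 and 88 in control. All homozygous libraries were above all heterozygous ones, and homozygous replicate 3, at 28.5 CPM, was close to the control mean of 23.8 ± 4.55 (SD, n = 3). Its log2 fold change was 3.75, and 2.11 without homozygous replicates 1 and 2. The antisense transcript asRNA:CR11538 overlaps Lsp2 on the opposite strand and gave a like pattern, with 10, 26 and 4 against 658, 281 and 82 reads. Because no source says how strand was handled in counting, reads of the 2 genes cannot be told apart. A second storage protein gene, Lsp1beta, was not in the class: it had 11, 6 and 4 reads in heterozygous and 50, 29 and 26 in homozygous libraries, and 17, 36 and 30 in control. It was called with a log2 fold change of 2.11 ± 0.39 (edgeR adjusted p = 0.00678), a call lost without heterozygous replicate 2 or 3 (edgeR adjusted p up to 0.0539).

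The mirrored class, low only in homozygous replicates 1 and 2 among the 6 libraries compared, held 4 genes. Of these, 3 are near-identical copies of the heat shock gene Hsp70, so their reads may be shared between copies. Hsp70Aa had 42, 86 and 93 reads in heterozygous and 7, 8 and 93 in homozygous libraries, Hsp70Ab had 85, 123 and 189 against 24, 10 and 185, and Hsp70Bc had 37, 57 and 48 against 3, 7 and 49. In each copy homozygous replicate 3 was at the heterozygous level, and none was called (edgeR adjusted p between 0.20 and 0.379). Control libraries had 3, 18 and 26 reads of Hsp70Aa, 16, 61 and 75 of Hsp70Ab and 1, 12 and 15 of Hsp70Bc. Control replicate 1 was about as low as homozygous replicate 1, at 1.11, 5.95 and 0.372 CPM against 1.68, 5.75 and 0.719. Low levels of these copies were thus not particular to homozygous replicates 1 and 2. The last gene, CG14572, had 37, 71 and 48 reads in heterozygous and 6, 8 and 154 in homozygous libraries, with replicate 3 above all others. The list of 16 tested heat shock genes and chaperones had a median log2 fold change of -0.67, beside 0.02 over all genes tested. That median was -1.09 without homozygous replicate 3 and -0.07 without homozygous replicates 1 and 2. The co-chaperone gene stv was the member called, a share of 6.25% near the 5.48% of all genes tested. It had 342, 411 and 423 CPM in heterozygous and 175, 193 and 244 in homozygous heads (log2 fold change -0.94 ± 0.22, edgeR adjusted p = 0.0226). The stv call was lost without any one library other than homozygous replicate 3 (edgeR adjusted p up to 0.103). The control mean of stv, 203 ± 72.4 CPM, was near the homozygous mean of 204 ± 35.9 (SD, n = 3).

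Of the genes lower in all 3 homozygous libraries, the one with the lowest p was Ugt35B1 (FBgn0026314, 3R 11168503 to 11170246), which encodes a UDP-glycosyltransferase, an enzyme class that attaches sugars to small lipophilic molecules. It had 277, 252 and 242 reads in heterozygous libraries, 10, 12 and 6 in homozygous ones and 220, 308 and 286 in control. The level fell from 74.1 ± 3.57 to 2.4 ± 0.947 CPM (SD, n = 3), a log2 fold change of -4.95 ± 0.20 (edgeR adjusted p = 5.71e-09). Of 18 tested UDP-glycosyltransferase genes, 2 were called lower and 0 higher, beside 2.11% lower over all genes tested. The cytochrome P450 gene Cyp313a1 had 232, 241 and 219 CPM in heterozygous and 98.7, 92.8 and 73.0 in homozygous heads, against 251, 262 and 292 in control. No homozygous library came near the heterozygous range, and the log2 fold change was -1.39 ± 0.13 (edgeR adjusted p = 4.47e-05). Cpr11B, which encodes a chitin-binding cuticular protein, fell from 523 ± 118 to 147 ± 15.7 CPM (SD, n = 3), with 421 ± 71.3 in control (log2 fold change -1.83 ± 0.17, edgeR adjusted p = 5.01e-05).

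In another group of lower genes the control level was nearer to the homozygous one. CG31287 (3R 16203371 to 16204961) had 118, 122 and 95 reads in heterozygous libraries, 2, 2 and 5 in homozygous and 1, 1 and 0 in control ones. Its log2 fold change was -5.34 ± 0.32 (edgeR adjusted p = 6.46e-07). CG40472 had 51.9, 52.6 and 55.9 CPM in heterozygous and 12.2, 8.38 and 7.30 in homozygous heads, with 18.6, 10.2 and 17.3 in control (log2 fold change -2.51 ± 0.23, edgeR adjusted p = 4.47e-05). Jhedup, a relative of the esterase that breaks down juvenile hormone, fell from 244 ± 12.1 to 81.8 ± 21.5 CPM (SD, n = 3), with 126 ± 9.79 in control (log2 fold change -1.57 ± 0.16, edgeR adjusted p = 9.61e-05). In these 3 genes the heterozygous libraries were the highest of the 9.

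Nmdmc, an enzyme of mitochondrial folate metabolism, had 34.5, 51.2 and 62.4 CPM in heterozygous and 12.5, 13.7 and 11.4 in homozygous heads (log2 fold change -1.98 ± 0.21, edgeR adjusted p = 1.58e-04). Its annotated span, 3R 9042508 to 9050555, encloses that of Rel at 9044183 to 9047977 on the same strand, so reads of both genes may have been shared. Rel, the NF-kappaB factor of the Imd pathway, fell from 136 ± 21.4 CPM to 78.6 ± 8.92 CPM (mean ± SD, n = 3; a log2 fold change of -0.79 ± 0.16, edgeR adjusted p = 0.0102), a call lost without heterozygous replicate 3 (edgeR adjusted p = 0.0632). The control level of Rel, 82.5 ± 16.8 CPM (SD, n = 3), was near the homozygous one. The odorant receptor gene Or22b had 24, 12 and 13 reads in heterozygous and 7, 2 and 3 in homozygous libraries (log2 fold change -2.18 ± 0.48, edgeR adjusted p = 0.0180). It was the member called of 16 tested odorant, gustatory and ionotropic receptor genes, whose median log2 fold change was -0.64. The share called, 6.25%, is near the 5.48% of all genes tested. The call was lost without homozygous replicate 2 or heterozygous replicate 1 or 3 (edgeR adjusted p up to 0.115).

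Genes higher in all 3 homozygous libraries included several regulators. CCHa2, which encodes a peptide hormone, had 90, 105 and 83 reads in heterozygous and 328, 291 and 372 in homozygous libraries, with 108, 146 and 124 in control. It rose from 26.7 ± 2.36 to 83.5 ± 6.25 CPM (SD, n = 3), a log2 fold change of 1.64 ± 0.13 (edgeR adjusted p = 1.16e-05). The transcription factor gene Cph had 35.1, 31.4 and 35.2 CPM in heterozygous and 122, 105 and 122 in homozygous heads (log2 fold change 1.78 ± 0.14, edgeR adjusted p = 1.16e-05). The juvenile hormone receptor gene gce (X 15297766 to 15319074) rose from 122 ± 17.4 to 341 ± 25.8 CPM (SD, n = 3), with 126 ± 17.3 in control (log2 fold change 1.48 ± 0.14, edgeR adjusted p = 4.47e-05). For CCHa2, Cph and gce every homozygous library was at least 2-fold above every heterozygous one, and homozygous replicate 3 was at or near the top.

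CG34166 had the same statistical weight, at 26.4, 38.6 and 40.4 CPM in heterozygous and 145, 168 and 128 in homozygous heads (log2 fold change 2.07 ± 0.16, edgeR adjusted p = 1.16e-05). The circadian activator gene Clk had 49, 70 and 54 reads in heterozygous and 199, 173 and 352 in homozygous libraries, with 95, 125 and 118 in control, so the control libraries lay between the groups. Its log2 fold change was 1.86 ± 0.23 (edgeR adjusted p = 4.65e-04). Clk was the 1 member called of 15 tested clock genes, a share of 6.67% near the 5.48% of all genes tested. ImpL1, known as an ecdysone-inducible gene, had 24, 16 and 30 reads in heterozygous and 142, 131 and 118 in homozygous libraries (log2 fold change 2.29 ± 0.27, edgeR adjusted p = 4.02e-04). Hr3, an ecdysone-inducible nuclear receptor gene named after its values were seen, rose from 146, 146 and 127 to 330, 306 and 325 reads (log2 fold change 1.01 ± 0.12, edgeR adjusted p = 3.72e-04). Osi6, of the Osiris family, had 4, 3 and 2 against 27, 26 and 30 reads (log2 fold change 2.97 ± 0.44, edgeR adjusted p = 0.00181).

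**Figure D4:**
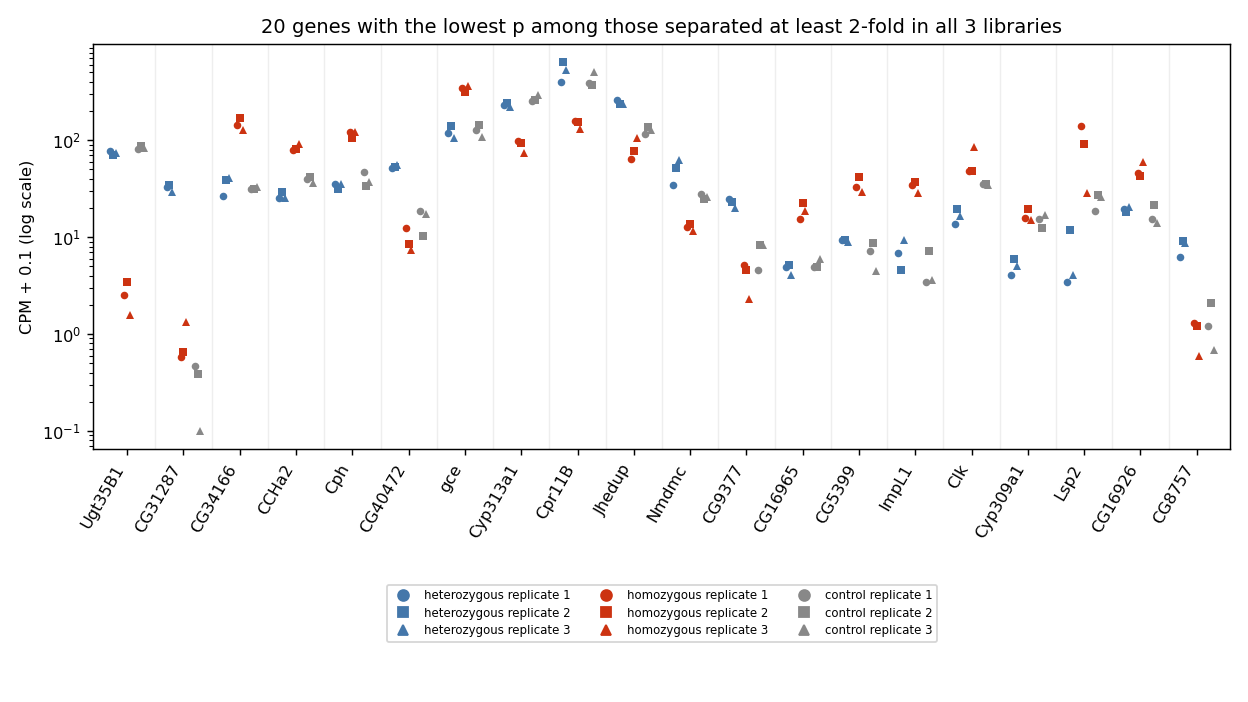
CPM + 0.1 (log scale) in each library for the 20 genes with the lowest p among those separated at least 2-fold in all 3 libraries, with colour for the group and symbol for the replicate. Homozygous and heterozygous libraries do not overlap for any of them, and the control libraries lie near the heterozygous level for gce (126 ± 17.3 CPM) and near the homozygous level for CG31287.

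Some genes with few or no reads in heterozygous heads were present in all 3 homozygous libraries. CG31104 had 0 reads in every heterozygous library and 27, 43 and 23 in the homozygous ones, at least 27.2-fold higher when the heterozygous group is set to a floor of 3 reads in all. Control libraries had 14, 19 and 3 reads. Its neighbour CG10514, which starts 3R 25278427 against 25285473 for CG31104, went the other way, with 18, 20 and 13 reads in heterozygous and 2, 5 and 2 in homozygous libraries (log2 fold change -2.63 ± 0.46, edgeR adjusted p = 0.00565). CG10912 had 0, 1 and 1 reads against 120, 201 and 58, which is 166-fold, with 95% limits from counting error of 45.7 and 1378. CG42397 had 0 reads against 32, 37 and 13, at least 24.0-fold higher, and the adjacent mucin gene Muc68E had 1, 2 and 0 against 19, 22 and 13. The gene mesh, a component of the smooth septate junctions of the midgut, had 3, 16 and 17 reads in heterozygous and 83, 101 and 58 in homozygous libraries (log2 fold change 2.56 ± 0.52, edgeR adjusted p = 0.0116). Within the homozygous group these genes were lowest in replicate 3, as was the midgut marker sum, and control replicate 2 had 51 reads of CG10912 and 37 of mesh. The calls of CG42397 and Muc68E were lost without any one heterozygous library and that of mesh without heterozygous replicate 1 or 2 (edgeR adjusted p up to 0.0776).

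Of 14 tested Bomanin and Daisho genes, short secreted peptides of the Toll response, 5 were called higher and 0 lower, beside 3.38% and 2.11% of all genes tested, with a median log2 fold change of 0.48. BomS6 had 33, 19 and 17 reads in heterozygous and 97, 84 and 90 in homozygous libraries (log2 fold change 1.78 ± 0.27, edgeR adjusted p = 0.00232). Dso1 rose from 176 ± 82.5 to 364 ± 65.8 CPM (SD, n = 3), with 77.9 ± 15.6 in control (log2 fold change 1.05 ± 0.25, edgeR adjusted p = 0.0263), and Dso2 by a log2 fold change of 1.14 (edgeR adjusted p = 0.0173). Both Daisho genes were lowest in replicate 3 within the homozygous group. The Dso2 call was lost without homozygous replicate 2 or heterozygous replicate 1 or 2, and that of Dso1 without these or homozygous replicate 1 (edgeR adjusted p up to 0.149). BomS4 went from 25.7 ± 6.39 CPM to 48.7 ± 12 CPM (mean ± SD, n = 3; edgeR adjusted p = 0.0383). It lost its call without homozygous replicate 1 or any heterozygous library, up to 0.173, and with exon length corrected, at edgeR adjusted p = 0.161. BomBc2 had 861, 906 and 1180 reads in heterozygous and 2227, 1870 and 1347 in homozygous libraries, with homozygous replicate 3 inside the heterozygous range after scaling.

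Of 31 tested genes for peptidoglycan recognition and Toll and Imd signalling, 2 were called higher and 1 lower, Rel, which is 9.68% beside 5.48% of all genes tested. PGRP-SB1, a secreted amidase that cleaves peptidoglycan, rose from 9.31 ± 1.46 CPM to 22.5 ± 4.60 CPM (mean ± SD, n = 3; a log2 fold change of 1.27 ± 0.25, edgeR adjusted p = 0.00915), and the Imd inhibitor gene pirk had 36, 20 and 26 against 73, 80 and 56 reads (log2 fold change 1.17 ± 0.32, edgeR adjusted p = 0.0470). The PGRP-SB1 call was lost without heterozygous replicate 2 or 3 and that of pirk without any library but homozygous replicate 3, with edgeR adjusted p up to 0.0697 and 0.203. Of 9 tested antimicrobial peptide genes, edgeR and DESeq2 called 0, 3 had an unadjusted p under 0.05, and the median was 0.02. TotA, a stress-induced Turandot gene, had 40.7, 19.0 and 33.6 CPM in heterozygous and 96.5, 119 and 51.3 in homozygous heads (log2 fold change 1.51 ± 0.29, edgeR adjusted p = 0.00857), and its neighbour TotC was in the class high only in replicates 1 and 2, with 194, 155 and 31 reads against 47, 23 and 42. TotA lost its call without heterozygous replicate 2 or 3 (edgeR adjusted p up to 0.0609). The fat body marker sums beside these genes are those given above, lowest in homozygous replicate 3 and mostly from yolk protein genes and apolpp. Their part in the result was not tested.

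Cuticle genes changed in both directions. Of 32 tested of 125 listed cuticular protein genes, 8 were called higher and 3 lower, beside 3.38% and 2.11% of all genes tested, with a median of 0.51. Cpr49Ae had 134, 144 and 124 CPM in heterozygous and 278, 246 and 288 in homozygous heads (log2 fold change 1.01 ± 0.12, edgeR adjusted p = 3.21e-04). Cpr62Bc rose from 194 ± 16.7 CPM to 330 ± 22.1 CPM (mean ± SD, n = 3; edgeR adjusted p = 0.00189), with 129 ± 9.77 in control. Cpr47Ea had 34.5, 40.9 and 33.3 against 110, 118 and 65.9 CPM, lowest of the homozygous libraries in replicate 3 and still above every heterozygous one (log2 fold change 1.43 ± 0.21, edgeR adjusted p = 0.00178). Of 9 tested members of the yellow family, which takes part in pigmentation, 2 were called higher (3.38% over all genes tested), yellow-e and yellow-c, with log2 fold changes of 0.77 and 0.69. The first lost its call without heterozygous replicate 1 and the second without any one heterozygous library (edgeR adjusted p up to 0.108). Of 65 tested cytochrome P450 genes, 5 were called higher and 3 lower, all 8 separated in all 3 libraries, beside 3.27% and 2.10% of all genes tested. Cyp309a1 had 14, 21 and 16 reads in heterozygous and 65, 69 and 62 in homozygous libraries, with 41, 43 and 57 in control (log2 fold change 1.75 ± 0.24, edgeR adjusted p = 0.00133). Glutathione S-transferases, another detoxification family, had 0 of 29 called by edgeR or DESeq2 and 6 with an unadjusted p under 0.05.

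Of 18 tested voltage-gated ion channel genes, 5 were called lower and 1 higher, beside 2.11% and 3.38% of all genes tested. The potassium channel gene Elk had 33.4, 41.7 and 32.7 CPM in heterozygous and 16.8, 20.7 and 18.5 in homozygous heads (log2 fold change -0.95 ± 0.17, edgeR adjusted p = 0.00565). Shab, a delayed-rectifier potassium channel gene, fell from 379 ± 8.22 CPM to 249 ± 18.8 CPM (mean ± SD, n = 3; a log2 fold change of -0.60 ± 0.11, edgeR adjusted p = 0.00633). Both calls held without any one of the 6 libraries. The calcium channel gene Ca-alpha1T had a log2 fold change of -0.56 ± 0.12 (edgeR adjusted p = 0.0141), and Teh1, which encodes a subunit of the sodium channel, rose from 62.9 ± 8.91 CPM to 98.4 ± 8.03 CPM (mean ± SD, n = 3; edgeR adjusted p = 0.0116). The calls of Ca-alpha1T and Teh1 were both lost without heterozygous replicate 1 or 2 (edgeR adjusted p up to 0.092).

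Of 23 tested synaptic vesicle and active zone genes, 2 were called lower, comt and unc-13, with log2 fold changes of -0.49 and -0.48 that were no longer called without any one library except homozygous replicate 3 (edgeR adjusted p up to 0.13). The list had 8.70% of its members called, beside 5.48% of all genes tested, and a median of -0.20, with 21 members below 0. ChAT, the enzyme that makes acetylcholine, fell from 137 ± 3.76 to 96.4 ± 9.24 CPM (SD, n = 3), the one call among 9 neuron markers (edgeR adjusted p = 0.0180; up to 0.0818 and not called without homozygous replicate 1 or any heterozygous library). Control heads had 105 ± 6.21 CPM of ChAT (SD, n = 3), nearer to the homozygous level. All 9 neuron markers had log2 fold changes below 0, and their sums of 6072 to 6517 CPM in heterozygous and 4993 to 5918 in homozygous heads did not overlap; their part in these differences was not tested. Of 31 tested neuropeptide genes CCHa2 was called higher and Dh44, which encodes a diuretic hormone, lower, a share of 6.45% that is near the 5.48% of all genes. Dh44 had 121, 144 and 122 CPM in heterozygous and 86.7, 90.8 and 55.7 in homozygous heads (log2 fold change -0.73 ± 0.17, edgeR adjusted p = 0.0218; not called without any one heterozygous library, up to 0.117).

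In the eye, the 2 visual arrestin genes, whose products switch off activated rhodopsin, were the members called of 29 tested phototransduction genes, of which DESeq2 called 5, all lower. The share called by edgeR, 6.90%, is near the 5.48% of all genes tested. Arr1 had 1874, 1782 and 2140 CPM in heterozygous and 1225, 1292 and 1053 in homozygous heads, with 1312, 1281 and 1610 in control (log2 fold change -0.70 ± 0.13, edgeR adjusted p = 0.00847). Arr2 went from 2661 ± 469 CPM to 1785 ± 147 CPM (mean ± SD, n = 3; a log2 fold change of -0.58 ± 0.15, edgeR adjusted p = 0.0392), with 3030 ± 409 in control. Arr1 lost its call without heterozygous replicate 3 and Arr2 without homozygous replicate 1 or 2 or heterozygous replicate 1 or 3 (edgeR adjusted p up to 0.0505 and 0.15). The main rhodopsin gene ninaE, at 12223, 11897 and 13337 CPM in heterozygous and 10877, 10841 and 8975 in homozygous heads, did not pass the test (log2 fold change -0.29 ± 0.13, edgeR adjusted p = 0.222). Summed photoreceptor markers, which include both arrestins, were lower in each homozygous library than in any heterozygous one, at 23228 to 24576 against 26774 to 29869 CPM.

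Of 31 tested odorant-binding protein genes, 3 were called higher and 3 lower, beside 3.38% and 2.11% of all genes tested. Obp99b had 2, 1 and 2 reads in heterozygous and 54, 45 and 14 in homozygous libraries and also met the rule for the class high only in replicates 1 and 2. Obp99c went from 95.7 ± 7.29 CPM to 176 ± 49.3 CPM (mean ± SD, n = 3; edgeR adjusted p = 0.00966), with homozygous replicate 3, at 121, the lowest of its group. Its call was lost without any one heterozygous library (edgeR adjusted p up to 0.0745), and without homozygous replicates 1 and 2 its log2 fold change moved from 0.88 to 0.31. Obp69a fell from 38.3 ± 5.75 CPM to 19.2 ± 1.66 CPM (mean ± SD, n = 3; a log2 fold change of -1.0 ± 0.21, edgeR adjusted p = 0.0128), and Obp28a, an antenna marker, from 84.3 ± 3.06 to 53.7 ± 10.2 (edgeR adjusted p = 0.0316). Obp28a was at 57.5 ± 12.2 CPM in control (SD, n = 3), near its homozygous level. The Obp69a call was lost without heterozygous replicate 2 and the Obp28a call without homozygous replicate 1 or any heterozygous library (edgeR adjusted p up to 0.119).

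Of 10 tested flight muscle markers, 4 were called lower and 0 higher, beside 2.11% and 3.38% of all genes tested. The summed level of these markers, given above and mostly from up and Mhc, was lower in every homozygous library than in any heterozygous one. Its part in the result was not tested. Of the 10 members, 4 had log2 fold changes above 0 and 6 below. The myosin heavy chain gene Mhc had 7840, 8020 and 7456 CPM in heterozygous and 3868, 5220 and 4571 in homozygous heads, with 4937, 4044 and 4839 in control. Its log2 fold change was -0.77 ± 0.14 (edgeR adjusted p = 0.00631). The gene bt, which encodes the giant muscle protein projectin, fell from 761 ± 9.64 CPM to 438 ± 28.8 CPM (mean ± SD, n = 3; a log2 fold change of -0.80 ± 0.13, edgeR adjusted p = 0.00334), and Mlp84B, a muscle LIM protein, from 479 ± 41.3 to 294 ± 38.5 (log2 fold change -0.71 ± 0.12, edgeR adjusted p = 0.00565). In control, bt was at 514 ± 86.6 and Mlp84B at 310 ± 14.4 CPM (SD, n = 3), both nearer to the homozygous level. TpnC41C lost its call, at a log2 fold change of -1.0 (edgeR adjusted p = 0.0467), without homozygous replicate 1 or any heterozygous library (up to 0.173). Its means were 204 CPM in heterozygous, 102 in homozygous and 100 in control heads. The actin gene Act79B, named after its values were seen, had 1003, 1286 and 1150 CPM in heterozygous and 279, 585 and 239 in homozygous heads (log2 fold change -1.64 ± 0.30, edgeR adjusted p = 0.00742), and lost its call without heterozygous replicate 2 (edgeR adjusted p = 0.0538). Markers specific to the indirect flight muscle went another way: Act88F had 1054, 1153 and 1245 reads in heterozygous and 318, 2474 and 2644 in homozygous libraries, with replicate 1 below and the others above the heterozygous range. The members above 0 were Act88F, fln, TpnC4 and Strn-Mlck, with log2 fold changes of 0.50, 0.53, 0.65 and 0.04, none of them called.

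Sex determination and dosage compensation genes had 1 of 17 tested called, a share of 5.88% near the 5.48% of all genes, lncRNA:roX1, an RNA of the male dosage compensation complex. It had 102, 11 and 94 reads in heterozygous and 16, 12 and 10 in homozygous libraries, with 38, 41 and 23 in control. Heterozygous replicate 2 lay within the homozygous range, and the log2 fold change of -2.63 ± 0.60 (edgeR adjusted p = 0.0206) was not called without heterozygous replicate 1 or 3 (up to 0.107). Sxl, the switch gene of female development, had 1030, 1184 and 1042 CPM in heterozygous and 1260, 1066 and 1321 in homozygous heads, overlapping (log2 fold change 0.16 ± 0.13, edgeR adjusted p = 0.527). The counts are per gene and hold no splice forms, so exon use in Sxl was not analysed here. The log2 fold changes of tra and dsx, further down the same pathway, were 0.11 and 0.24, neither called (edgeR adjusted p = 0.761 and 0.483).

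Large housekeeping lists had no called member: 0 of 79 cytosolic ribosomal protein genes, 0 of 66 respiratory chain genes and 0 of 32 proteasome genes passed edgeR's test, with medians of 0.11, 0.02 and -0.10. At an unadjusted p under 0.05 there were 5, 1 and 3, and DESeq2 called 1, 0 and 1. These medians changed sign with the libraries used. Without homozygous replicate 3 they were 0.23, 0.17 and -0.34, and without homozygous replicates 1 and 2 they were -0.24, -0.31 and 0.22. Of 17 tested genes of fat body lipid storage and synthesis, Sodh1 and Mtp were called higher, 11.8% beside 3.38% of all genes tested. Sodh1 was not called without heterozygous replicate 1 or 2, nor Mtp without any one library but homozygous replicate 3 (edgeR adjusted p up to 0.17). Of 20 tested genes of sugar mobilisation and glycolysis, Tps1, which makes trehalose, was called lower. The share called, 5%, is near the 5.48% of all genes tested. Tps1 went from 365 ± 20.1 CPM to 247 ± 20.5 CPM (mean ± SD, n = 3, edgeR adjusted p = 0.0102). It was not called without heterozygous replicate 1 or 3 (edgeR adjusted p up to 0.0539).

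**Figure D5:**
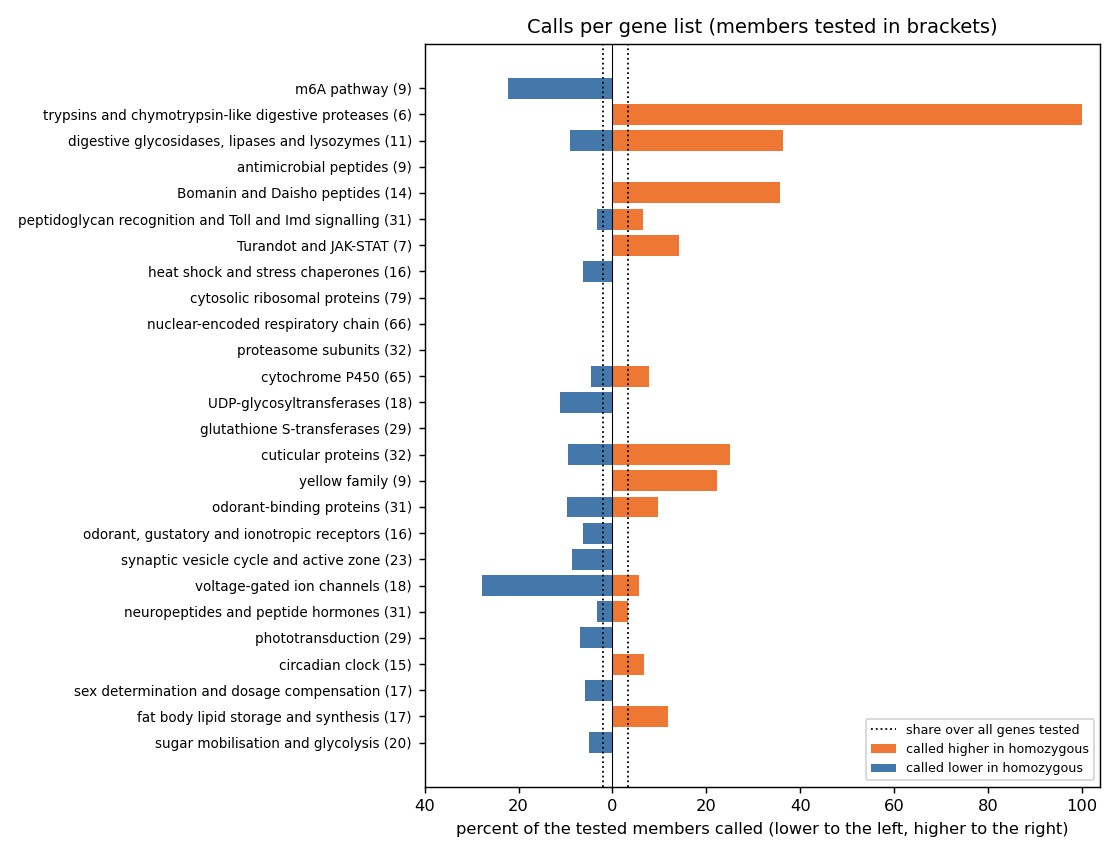
Percent of the tested members of each gene list called higher (right) or lower (left) in homozygous heads, with dotted lines at the share over all genes tested, 3.38% higher and 2.11% lower. The ribosomal, respiratory and proteasome lists have no bar, and the bar of the digestive proteases covers 6 tested of 31 listed members. Some of these, such as betaTry, passed the count filter only with homozygous replicates 1 and 2, where they are high. The same holds for LysD in the list of glycosidases, lipases and lysozymes.

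Called genes lay on every chromosome arm. The share called was 7.64% of 1701 genes on 3L, 6.04% of 1491 on the X, 5.08% of 2166 on 3R, 4.56% of 1799 on 2R and 4.27% of 1546 on 2L. On 3L, 88 of the 130 called genes were higher. Within 2 Mb of Mettl3 on each side, without Mettl3 itself, 23 of 381 genes were called, which is 6.04%, with 11 higher and 12 lower. On the 4th chromosome 6 of 89 tested genes were called (6.74%), all of them lower, bt among them.

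How far the classes rest on single libraries was measured by leaving libraries out. Of the 492 calls, 96 held without each of the 6 libraries in turn, 61 higher and 35 lower, and 5 of the 96 were in the class high only in homozygous replicates 1 and 2. Among genes separated at least 2-fold, 22 of the 47 higher and 13 of the 17 lower held in this way. Ugt35B1, CG31287, CG34166, CCHa2, Cph, gce, Cyp313a1, Cpr11B, Jhedup, Nmdmc, Clk, ImpL1 and Ythdc1 were among the 96. Leaving out homozygous replicates 1 and 2 together gave 802 calls and kept 286 of the 492 in the same direction, 58.1% of the 492 and 35.7% of the 802. The 282 genes higher in all 3 libraries outside the class and the 188 lower genes were chosen with homozygous replicate 3 already outside the heterozygous range. That fit is therefore no independent check of them. Leaving out homozygous replicate 3 gave 1099 calls and kept 463, which is 94.1% of the 492 and 42.1% of the 1099.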

How the data were processed

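Poly(A) RNA-seq libraries of female heads were compared, 3 homozygous and 3 heterozygous for Ime4. The authors deposited 1 table of read counts per library, 17558 genes with 5 summary lines, which were left out of totals and tests. Per the submitters' processing notes, CASAVA 1.8.4, STAR 2.4.0h, HTSeq 0.6.1 and DESeq2 1.6.3 were used, with the build BDGP6; the strand setting is not given in the sources used here. Reads outside genes made up 17.2% to 28.4% of the 6 libraries' totals and reads without a unique position 8.96% to 14%. An Ensembl annotation of the assembly held 17252 of the gene IDs and gave symbols and coordinates.

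Counts were scaled with TMM in edgeR 4.0.16 (R 4.3.3), filtered with filterByExpr (minimum count 10, minimum total 15) and tested with the quasi-likelihood test on the means of all 3 groups, with Benjamini-Hochberg adjustment over 8972 genes and a threshold of 0.05. Alternatives included DESeq2 1.42.0. Floors were 3 reads over a group, and intervals and floors cover counting error only. On simulated counts for this comparison (5 draws, 8972 genes, 200 changed) the test recovered 19.7%, 64.8% and 94.5% of genes with 1.5-fold, 2-fold and 4-fold changes, and 6.11% of its calls were unchanged genes.

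Genes were named by rule: the m6A genes, the 12 highest and 12 lowest called fold changes separated in all 3 libraries with a mean of at least 2 CPM, the 15 most abundant genes of the class high only in homozygous replicates 1 and 2 and the 4 on each side of its limit, the mirrored low genes, up to 4 members per list with the lowest p, and markers. Further genes, among them those separated at least 2-fold, were named after their values were seen. The members, the 26 gene lists and the 11 marker lists were chosen with earlier results of these data known.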

Additional observations from a re-analysis of the deposited data

How the results depend on the processing

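Against 492 calls (303 higher, 189 lower), other size factors, a floor of 10 CPM, DESeq2, only the 6 libraries compared and leaving out control replicate 3 gave 394 to 578. No filter on low counts gave 703 with 458 higher. Exon length correction, chosen after seeing the data, gave 591 with 297 lower, and the adjusted p threshold of 0.01 gave 159 (107 higher, 52 lower). At least 2-fold changes numbered 183 (139 higher, 44 lower). The cause was not tested. The replicate block gave 451 calls with 294 higher. Between heterozygous and homozygous libraries, correlations of deviations from group means were -0.0653 to 0.0352 for the same replicate number and -0.0903 to 0.112 otherwise. With 3 libraries a group and homozygous replicate 3 apart from the others, these values cannot decide whether replicate numbers pair libraries.

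Leaving out 1 library gave 139 to 1099 calls, 76 to 626 higher and 55 to 473 lower. The lowest counts came without heterozygous replicate 1 (139), 2 (152) or 3 (172) and the highest without homozygous replicate 3. Genes separated in all libraries numbered 76 to 623 higher and 55 to 472 lower, beside 293 and 188, and 47 and 17 when every library had to be at least 2-fold outside. Without homozygous replicates 1 and 2 together, 802 genes were called (426 higher, 376 lower), with the 1 library left assumed to vary like the other groups. There the log2 fold changes of CG12374 (-1.87), yip7 (-0.50), LysD (-0.92) and Jon65Aiv (-0.28) turned negative, and that of CG14572 turned to 1.29. These genes were placed in their classes by how homozygous replicate 3 differed from replicates 1 and 2. The loss of their main fold change therefore follows from that choice. The class high only in homozygous replicates 1 and 2 had 71 genes, 115 at 2-fold, 42 at 5-fold and 49 to 70 under its other settings.

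Of 117 named calls, 45 held without each of the 6 libraries. At 3420013 to 4272550 reads per library, a gene needed about 10 reads in 3 libraries to be tested, and 19.7% of simulated 1.5-fold changes were recovered.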

Other observations

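Further genes, part of them chosen after their values were seen, differed in all 3 homozygous libraries and stayed called without any one of the 6 libraries. CG16965 had 17, 18 and 13 reads in heterozygous and 64, 80 and 76 in homozygous libraries, and CG5399 had 33, 33 and 29 against 138, 148 and 119. Control libraries had 13, 17 and 20 reads of CG16965 and 19, 30 and 15 of CG5399. Prx6b, a peroxiredoxin gene, had 10, 17 and 9 reads in heterozygous, 59, 39 and 81 in homozygous and 19, 46 and 59 in control libraries (log2 fold change 2.11 ± 0.36, edgeR adjusted p = 0.00520). CG9377 had 88, 83 and 65 reads in heterozygous, 21, 16 and 9 in homozygous and 12, 29 and 28 in control libraries (log2 fold change -2.53 ± 0.29, edgeR adjusted p = 3.21e-04). CheA7a had 33, 36 and 36 reads against 11, 8 and 8 (log2 fold change -2.13 ± 0.34, edgeR adjusted p = 0.00298).

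Among marker lists of other cells, 0 of 6 Malpighian tubule markers were called by edgeR or DESeq2, with 0 at an unadjusted p under 0.05. The haemocyte list of 10 tested members had 1 call, lz, which is 10% beside 5.48% of all genes tested. It had 53, 49 and 32 reads in heterozygous and 92, 88 and 122 in homozygous libraries. The lz call was lost without heterozygous replicate 2 or 3 (edgeR adjusted p up to 0.0723). Glial markers had 2 of 8 called lower, Eaat1 and alrm, with log2 fold changes of -0.40 and -0.56, beside 2.11% of all genes tested, while 5 of the 8 had log2 fold changes above 0 and the list median was 0.10. Neither was called without any one library but homozygous replicate 3 (edgeR adjusted p up to 0.116). Hml, a haemocyte gene that was not called, had 176, 169 and 195 reads in heterozygous and 201, 156 and 65 in homozygous libraries, lowest in homozygous replicate 3.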
